A study of Mus musculus with 40 samples.

Results

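The 8 crossover formation genes Hfm1, Msh4, Msh5, Mlh3, Rnf212, Ccnb1ip1, Cntd1 and Mus81 were followed in 40 single cells of mouse testis. The genes were taken by symbol from a table of 55492 genes, and 8 of the 8 were found there. The 20 cells named Metaphase I and the 20 cells named Pachytene came from C57BL/6J mice aged 6 to 8 weeks, with no mutation, transgene or animal named. Per the labels' protocols, spermatocytes were enriched by elutriation, a separation by size and density, and 4 µM okadaic acid for 5 h was used to drive cells to metaphase I. Okadaic acid inhibits the phosphatases PP1 and PP2A. The protocol text is the same on all 40 libraries, so the Metaphase I cells were taken as the treated ones by name, and stage, drug and culture time cannot be told apart. The comparison asks how transcripts of these genes differ between spermatocytes driven to metaphase I and spermatocytes at pachytene.

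Crossovers are the reciprocal exchanges between homologous chromosomes that hold the pairs together until the first meiotic division. They arise in prophase I from DNA breaks, when early joint molecules are stabilised, a few of them are selected during pachytene, and the selected ones are cut into crossovers. HFM1 is a DNA helicase that acts on early joint molecules, and MSH4 and MSH5 form a clamp that holds them. RNF212 is a RING protein that stabilises the clamp, and CCNB1IP1, also called HEI10, is a RING ubiquitin ligase that removes RNF212 from most sites. CNTD1 is a cyclin-related protein needed for crossover sites to mature. MLH3 belongs to the nuclease that makes most crossovers, and MUS81 is the catalytic subunit of a nuclease that makes a minority of them.

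Each group is 1 sample, because no animal or culture is named, so differences are described without a test. Values are CPM, a gene's counts scaled to a library total of 1000000. The totals ran from 198117 to 1497037 counts over Metaphase I cells and from 165048 to 2325564 over Pachytene cells, with sums of 13709617 counts in Metaphase I and 17663240 in Pachytene. All intervals are exact, at 95%, and cover counting error only. The libraries did not separate by label on division genes. The summed level of 8 meiotic division markers ran from 616 to 3107 CPM over Metaphase I cells and from 600.2 to 3241 CPM over Pachytene cells. Cyclin B1 (Ccnb1), the activator of CDK1 at division, ran from 3.92 to 505 CPM over Metaphase I cells and from 4.59 to 404 CPM over Pachytene cells. In 4 libraries of each group X-linked genes held over 0.3% of counts (Metaphase I replicates 3, 7, 17 and 19 and Pachytene replicates 2, 3, 7 and 19). In the 4 Pachytene ones the summed round spermatid markers stood at 3088 to 3889 CPM, against at most 929 CPM in the other 16 Pachytene libraries. Sertoli cell markers set apart Metaphase I replicates 13 to 20. Their sum was 15179 CPM in replicate 19 and 30.9 to 217 CPM in the other 7 of these libraries, against 0 to 13.1 CPM in Metaphase I replicates 1 to 12 and 0 to 16.1 CPM in Pachytene libraries. In those 7 libraries Clu and Vim each had counts in 7 of 7, while Wt1, Amhr2, Aard, Rhox5 and Inhbb of the 10 markers were at 0. The split was seen in the data, at a threshold of 20 CPM, and is named nowhere in the labels.

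Hfm1 lies on chromosome 5 (106840192 to 106926321), Msh4 on chromosome 3 (153857149 to 153906138), Msh5 on chromosome 17 (35028605 to 35046745) and Mlh3 on chromosome 12 (85234520 to 85270599), in GRCm38 as in the deposited table. Rnf212 lies on chromosome 5 (108729290 to 108774982), Ccnb1ip1 on chromosome 14 (50789248 to 50807732), Cntd1 on chromosome 11 (101279012 to 101296317) and Mus81 on chromosome 19 (5482345 to 5488402). All but Cntd1 are on the minus strand. The exons of Cntd1 share 3104 of their 4421 bases with Becn1 and 82 with Coa3, both on the opposite strand. The sources used here do not say whether counting used strand, so Cntd1 counts are uncertain. Mus81 shares 173 exon bases with Efemp2 on the opposite strand, which had only 19 counts in each group. Ccnb1ip1 shares 233 exon bases with Rpph1 on the same strand, and Msh4 shares 125 with Gm24395 on the opposite strand. Rpph1 and Gm24395 had 0 counts in both groups. Transcripts of Msh4 matched those of 107 other genes at 95% identity or more over at least 100 bases, and transcripts of Hfm1 matched those of 22, so part of their counts could be placed elsewhere.

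Promoter windows from 250 bases before to 50 after the gene start (RefSeq, GRCm38.p6) were found for all 8 genes. The RefSeq start used lay 12004 bases inside the counted gene for Ccnb1ip1, 1247 for Msh4 and 431 for Hfm1, and within 191 bases of the start of the counted gene for the others. The letters GCATGCGC, which stand inside the binding motif of the transcription factor NRF1, occurred on either strand in 4 of the 8 genes and in 2.71% of 32851 windows of the same length. This motif was chosen after the windows were seen. The windows of these 4 genes are shown with each match in capitals, and in Hfm1 matches on both strands overlap.
Hfm1 (chr5:106925841-106926140, minus strand): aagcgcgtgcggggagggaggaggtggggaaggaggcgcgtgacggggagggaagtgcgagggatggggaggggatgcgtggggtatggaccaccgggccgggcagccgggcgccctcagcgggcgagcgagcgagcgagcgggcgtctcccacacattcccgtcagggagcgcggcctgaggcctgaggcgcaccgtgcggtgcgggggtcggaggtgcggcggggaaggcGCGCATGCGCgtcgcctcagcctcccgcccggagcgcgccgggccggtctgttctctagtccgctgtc
Rnf212 (chr5:108774978-108775277, minus strand): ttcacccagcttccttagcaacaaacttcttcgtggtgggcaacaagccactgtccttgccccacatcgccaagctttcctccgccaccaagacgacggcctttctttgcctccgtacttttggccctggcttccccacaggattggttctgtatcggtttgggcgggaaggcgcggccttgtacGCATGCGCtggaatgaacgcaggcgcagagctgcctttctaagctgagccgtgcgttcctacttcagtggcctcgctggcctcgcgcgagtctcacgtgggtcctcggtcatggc
Mlh3 (chr12:85270550-85270849, minus strand): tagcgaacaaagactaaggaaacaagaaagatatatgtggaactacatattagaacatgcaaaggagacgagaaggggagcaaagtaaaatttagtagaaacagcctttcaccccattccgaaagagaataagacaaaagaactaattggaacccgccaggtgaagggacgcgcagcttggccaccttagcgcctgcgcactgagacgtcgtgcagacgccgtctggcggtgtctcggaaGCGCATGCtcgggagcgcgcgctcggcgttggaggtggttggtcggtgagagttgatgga
Ccnb1ip1 (chr14:50795679-50795978, minus strand): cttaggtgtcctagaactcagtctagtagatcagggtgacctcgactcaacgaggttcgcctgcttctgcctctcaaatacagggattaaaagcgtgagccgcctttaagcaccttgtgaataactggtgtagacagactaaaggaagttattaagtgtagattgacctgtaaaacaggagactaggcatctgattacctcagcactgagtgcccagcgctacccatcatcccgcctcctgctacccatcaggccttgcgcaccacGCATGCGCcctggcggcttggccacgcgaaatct
The windows of Msh4, Msh5, Cntd1 and Mus81 held no such run of letters. The MYB core AACTG was in the windows of 2 of the 8 genes and in 44.8% of all windows, and CCAAT was in 4 of the 8 and in 37.4%. The CRE letters TGACGT and the RFX letters GTTGCC were in 0 and 1 of the 8, and in 7.51% and 12.5% of all windows.

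Summed over cells, 7 of the 8 genes were higher in Metaphase I and Mus81 was lower. For Msh5 and Cntd1 the ratio was near 1 and its direction changed with the cells kept. Hfm1 and Msh4 were over 2-fold higher (2 of 8, where 8.49% of 16174 measured genes were), and 0 of 8 were over 2-fold lower (9.81% of measured genes). A gene was measured when it had at least 20 counts over both groups, and the call used a log2 ratio with 1 CPM added to each group. The median log2 ratio of the 8 was 0.68, against -0.00 for all measured genes (quartiles -0.40 and 0.38). Together the 8 genes had 3378 counts in Metaphase I, or 246 CPM, and 2688 counts in Pachytene, or 152 CPM, a 1.62-fold higher sum (1.54 to 1.70). Metaphase I replicates 13 to 20 carried most of this difference. Without these 8 libraries 0 of 8 genes were over 2-fold higher (2.21% of 14852 measured genes) and 0 over 2-fold lower (8.35%), the median log2 ratio was -0.18 and the sum was 1.08-fold higher (1.01 to 1.16). Hfm1, Mlh3 and Rnf212 were then higher in Metaphase I, and the other genes of the 8 were lower. The 8 libraries held 67.1% of the Metaphase I counts of the 8 genes, from 41.4% for Mus81 to 84.7% for Msh4. Such shares also reflect the depth of the libraries, which CPM takes into account. These libraries had 78.4 to 660.0 summed CPM with a median of 307, against 96.5 to 285 CPM with a median of 145 in Metaphase I replicates 1 to 12. The part of the Sertoli cell markers in this was not tested. The median of the summed level was 156 CPM over Metaphase I cells (78.4 to 660.0) and 158 CPM over Pachytene cells (59.3 to 284).

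**Figure D1:**
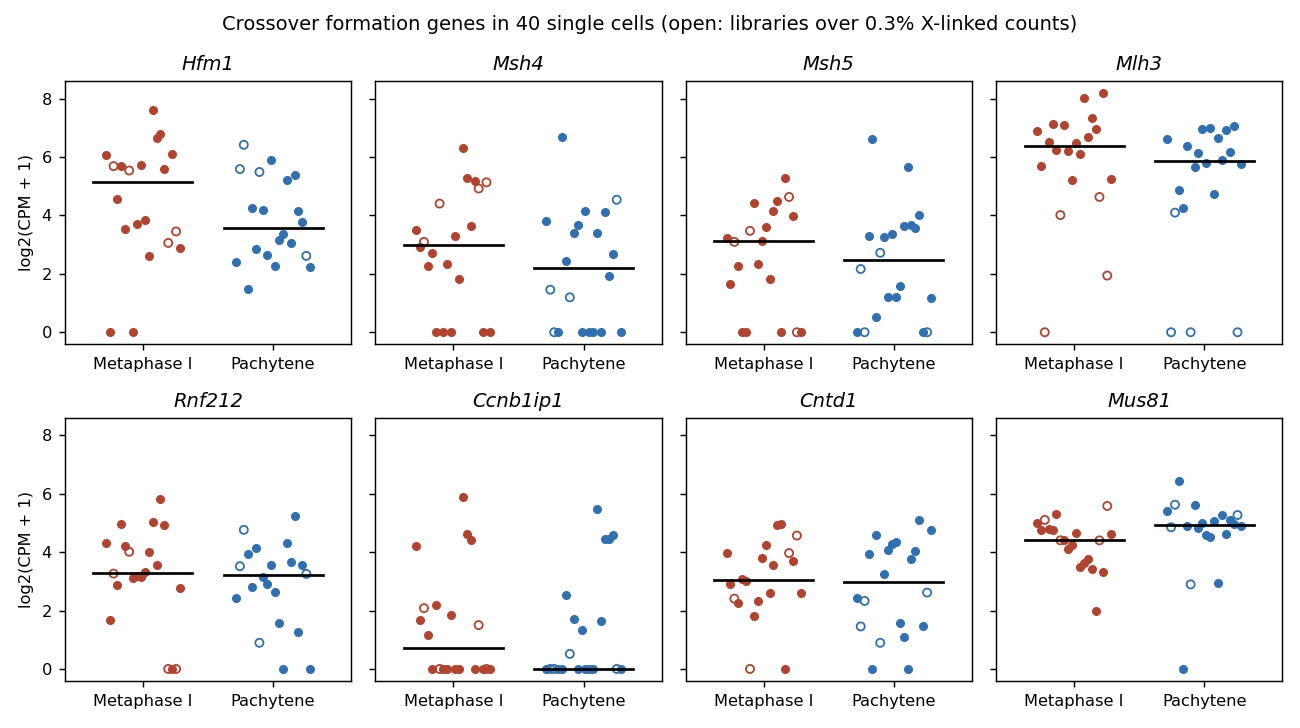
Level of each gene in each cell as log2(CPM + 1), with Metaphase I cells on the left and Pachytene cells on the right of each panel. Black bars are medians over 20 cells and open points are the libraries with over 0.3% X-linked counts. The groups overlapped for all 8 genes, Mlh3 was at 0 in 4 of the 8 open libraries, and Ccnb1ip1 was at 0 in 21 of 40 cells.

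Within these libraries a few cells stood highest. Replicate 13 alone held 29.2% of the counts of the 8 genes in its group and had 660.0 CPM, against 398 CPM in replicate 15, the next highest. The highest Pachytene cell was replicate 16 at 284 CPM. Replicate 13 is also the deepest Metaphase I library (1497037 counts). Its synaptonemal complex genes stood at 4413 CPM (group median 1640) and its division markers at 703 CPM (group median 1670), and the part of these in the result was not tested. Without replicate 13 the number over 2-fold higher was 0 of 8 (7.54% of 16039 measured genes), the median log2 ratio was 0.25, and 0 of 8 were over 2-fold lower (8.51%). With the 8 libraries of over 0.3% X-linked counts left out, 2 of 8 were over 2-fold higher (6.32% of 13451 genes), 0 were lower (4.13%), and the median was 0.66.

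**Figure D2:**
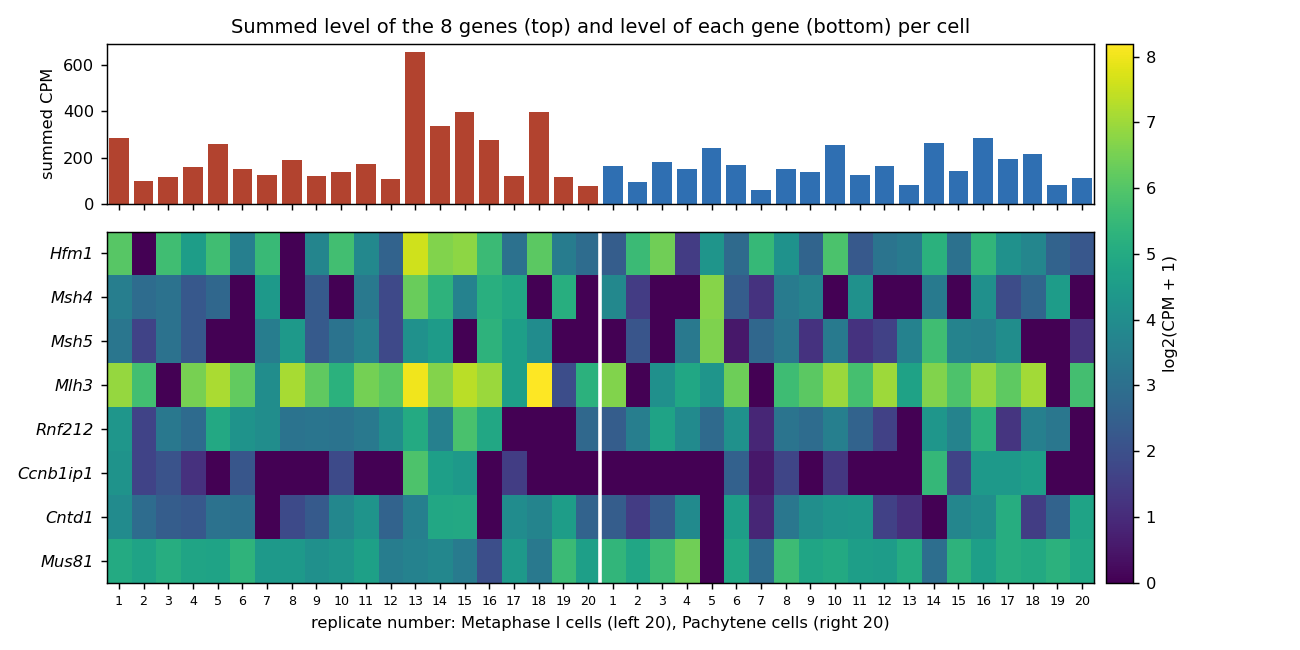
Summed CPM of the 8 genes per cell (bars) and log2(CPM + 1) of each gene (colour), with the 20 Metaphase I cells left of the white line and the 20 Pachytene cells right of it, each by replicate number. Metaphase I replicate 13 stood highest at 660.0 CPM, and 4 cells of each group had counts of all 8 genes.

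Hfm1 and Msh4, which act on early joint molecules, had the highest ratios. Hfm1 ran from 0 to 194 CPM over Metaphase I cells with a median of 34.1, and from 1.77 to 84.6 CPM over Pachytene cells with a median of 10.9. It had counts in 18 of 20 Metaphase I and 20 of 20 Pachytene cells, so the groups overlapped although the highest 3 values, in replicates 13, 14 and 15, were all Metaphase I. The sum was 778 counts in Metaphase I and 382 in Pachytene, 2.62-fold higher (2.32 to 2.97). Replicate 13 held 37.4% of the Metaphase I counts, and without it the ratio was 1.84-fold (1.61 to 2.11). Without the 8 libraries over 0.3% X-linked counts it was 4.13-fold (3.53 to 4.84), since the 4 such Pachytene libraries held 174 of the 382 Pachytene counts. Hfm1 had a log2 ratio over 1 in 39 of 40 omissions of a single cell, but Metaphase I replicates 13 to 20 held 74.0% of its Metaphase I counts, and without them the ratio was 1.39-fold (1.16 to 1.65).

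Msh4 ran from 0 to 78.2 CPM in Metaphase I (median 7.02) and from 0 to 103 CPM in Pachytene (median 3.58), so the highest cell was a Pachytene one, replicate 5. That library is the shallowest of all, and its value rests on 17 counts. The sum was 261 counts in Metaphase I and 119 in Pachytene, 2.83-fold higher (2.27 to 3.54). Metaphase I replicate 13 held 44.8% of its group's counts, and without it Msh4 was 1.75-fold higher (1.36 to 2.25). Metaphase I replicates 13 to 20 held 84.7%, and without them Msh4 had a ratio of 0.88 (0.599 to 1.27), so its direction changed. Its partner Msh5 differed little in the sum, although its medians over cells lay apart much as those of Msh4 did. Msh5 ran from 0 to 38.1 CPM in Metaphase I (median 7.65) and from 0 to 96.9 CPM in Pachytene (median 4.54), again highest in Pachytene replicate 5. The sum was 119 counts in Metaphase I and 143 in Pachytene, a ratio of 1.07 (0.834 to 1.38), and 0.95 without Metaphase I replicate 13 (0.725 to 1.24). Leaving out Metaphase I replicates 13 to 20 gave 0.751 (0.517 to 1.07).

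The RING protein genes differed in how they were spread. Rnf212 ran from 0 to 55.7 CPM in Metaphase I (median 8.74) and from 0 to 37.1 CPM in Pachytene (median 8.25), with counts in 17 of 20 Metaphase I and 18 of 20 Pachytene cells. Its sums of 216 counts in Metaphase I and 179 in Pachytene gave a 1.55-fold higher level (1.27 to 1.91), while the medians over cells differed by 0.07 on the log2 scale. The ratio of Rnf212 was 1.13 (0.851 to 1.48) without Metaphase I replicates 13 to 20. Ccnb1ip1 was found in 10 of 20 Metaphase I and 9 of 20 Pachytene cells, mostly at a few counts. It ran from 0 to 58.8 CPM in Metaphase I (median 0.631) and from 0 to 43.2 CPM in Pachytene (median 0). Over 10 CPM were 4 cells of each group, Metaphase I replicates 1, 13, 14 and 15 and Pachytene replicates 14, 16, 17 and 18, and these held 94.4% of the Metaphase I counts and 81.4% of the Pachytene counts. Metaphase I replicate 20, a deep library of 1391126 counts, had 0 Ccnb1ip1 counts, which allows up to 2.16 CPM. After each cell was thinned to 340000 counts, Ccnb1ip1 was found in 8 of 17 Metaphase I cells and 7 of 19 Pachytene cells. Ccnb1ip1 summed to 161 counts in Metaphase I and 102 in Pachytene, 2.03-fold higher (1.58 to 2.63), and 1.04-fold (0.756 to 1.41) without Metaphase I replicate 13, which held 54.7% of them. Its ratio was 0.642 (0.397 to 1.00) without Metaphase I replicates 13 to 20.

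Cntd1 had nearly the same summed level in both groups. It ran from 0 to 30.1 CPM in Metaphase I (median 7.27) and from 0 to 33.3 CPM in Pachytene (median 6.83), with counts in 18 of 20 cells of each group. The sums of 166 counts in Metaphase I and 202 in Pachytene gave a ratio of 1.06 (0.857 to 1.31), and 0.859 (0.685 to 1.07) without the 8 libraries over 0.3% X-linked counts. Without Metaphase I replicates 13 to 20 it was 0.661 (0.477 to 0.903). Cdk2, the kinase that marks the same sites, had 1124 counts in Metaphase I and 1363 in Pachytene, a ratio of 1.06 (0.98 to 1.15), with medians over cells of 60.9 CPM in Metaphase I and 89.4 CPM in Pachytene.

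Mlh3 was the most abundant of the 8 genes in summed CPM in both groups. It ran from 0 to 292 CPM in Metaphase I (median 81.5) and from 0 to 133 CPM in Pachytene (median 56.6). The sum was 1382 counts in Metaphase I and 1039 in Pachytene, 1.71-fold higher (1.58 to 1.86), and 1.39-fold (1.27 to 1.51) without Metaphase I replicate 13. Mlh3 was low in the libraries over 0.3% X-linked counts, which was seen after its values were examined. In the 4 Metaphase I ones it had 0 to 23.8 CPM, against 36.3 to 292 CPM in the other 16. In the 4 Pachytene ones it had 0 to 16.1 CPM, against 18.2 to 133 CPM in the other 16. The values did not overlap within either group, but the nearest ones rest on few counts. In Pachytene they were 8 counts in replicate 3 and 3 counts in replicate 5, the shallowest library. In Metaphase I they were 13 counts in replicate 17 and 14 counts in replicate 10. The 0 in Pachytene replicate 7, the deepest library of all, allows up to 1.29 CPM. Hfm1 differed in direction between the labels, at 28.2 CPM of the sum in the same 4 Metaphase I libraries against 62.7 CPM in the other 16, and at 43.7 CPM in the 4 Pachytene libraries against 15.2 CPM in the other 16. Ccnb1ip1 and Cntd1 were also low in the 4 Pachytene libraries, at 0.251 and 2.01 CPM of the sum, against 7.38 and 14.2 CPM in the other 16. In the 4 Metaphase I libraries they stood at 1.68 and 11.8 CPM, against 13.9 and 12.2 CPM in the other 16. The summed round spermatid markers (8 of 8 with counts in both groups) were 295 to 3701 CPM in the 4 Metaphase I libraries and 3088 to 3889 CPM in the 4 Pachytene libraries, against 286 to 763 CPM in the other Metaphase I and 409 to 929 CPM in the other Pachytene libraries, and the part of these in the Mlh3 values was not tested. Without these libraries the log2 ratio of Mlh3 was 0.67, against 0.77 with them. Mlh3 was 1.27-fold higher (1.14 to 1.41) without Metaphase I replicates 13 to 20.

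Mus81 was the only one of the 8 that was lower in the Metaphase I sum, and it was found in nearly every cell. It ran from 2.93 to 46.9 CPM in Metaphase I (median 20.3) and from 0 to 84.8 CPM in Pachytene (median 29.5), with counts in 20 of 20 Metaphase I and 19 of 20 Pachytene cells. The sum was 295 counts in Metaphase I and 522 in Pachytene, 1.37-fold lower in Metaphase I (1.19 to 1.59). It was lower in 40 of 40 omissions of a single cell, with log2 ratios from -0.60 to -0.34, and in each of them less than 2-fold. No single library held more than 16.1% of its group's counts. Without Metaphase I replicates 13 to 20 its ratio was 0.868 (0.727 to 1.03). Eme1, which encodes the partner subunit of MUS81, went the other way, with 83 counts in Metaphase I and 43 in Pachytene, 2.49-fold higher (1.70 to 3.68). Of the Metaphase I counts of Eme1, 41.0% lay in replicate 13. Without that cell and the 8 libraries over 0.3% X-linked counts its log2 ratio was -0.15, and without Metaphase I replicates 13 to 20 it was -0.03.

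**Figure D3:**
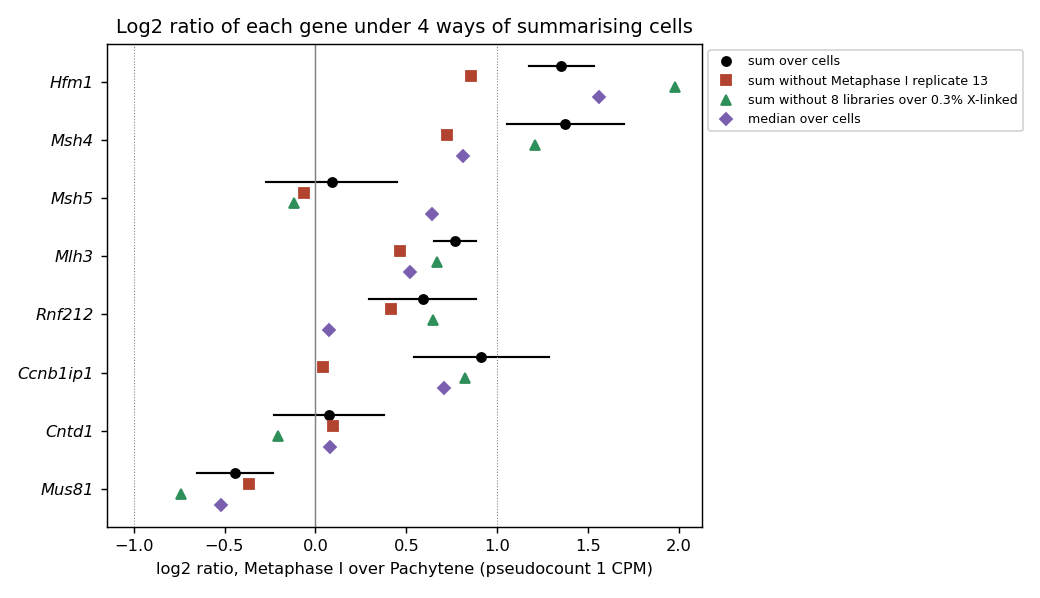
Log2 ratio of each gene, Metaphase I over Pachytene, from the sum over cells (black, with its 95% counting interval), from the sum without Metaphase I replicate 13 (red), from the sum without the 8 libraries over 0.3% X-linked counts (green) and from medians over cells (purple). Dotted lines mark 2-fold. Hfm1 and Msh4 moved from 1.35 and 1.37 to 0.85 and 0.73 without replicate 13, and Mus81 was below 0 on all 4 measures.

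Ordered by summed CPM per kilobase of exon, the Metaphase I levels ran from Mlh3 (13.3) through Rnf212 (9.56), Hfm1 (8.49), Ccnb1ip1 (6.24), Mus81 (6.03), Msh4 (2.76) and Cntd1 (2.74) to Msh5 (1.57). In Pachytene the order was Mus81 (8.29), Mlh3 (7.79), Rnf212 (6.15), Hfm1 (3.23), Ccnb1ip1 (3.07), Cntd1 (2.59), Msh5 (1.47) and Msh4 (0.977). Counting intervals of neighbours overlapped for Rnf212 and Hfm1, Ccnb1ip1 and Mus81, and Msh4 and Cntd1 in Metaphase I, and for Mus81 and Mlh3, Hfm1 and Ccnb1ip1, and Ccnb1ip1 and Cntd1 in Pachytene. The ranges over cells overlapped for all of them. The Metaphase I order rested in part on replicate 13. Without it Mus81 (6.38) stood above Hfm1 (5.96) and Cntd1 (2.78) above Msh4 (1.71), and Ccnb1ip1 was at 3.17. The order also rested on the 8 libraries set apart by Sertoli cell markers, which include replicate 13. They held 84.7% of the Metaphase I counts of Msh4, 84.5% of Ccnb1ip1 and 74.0% of Hfm1, against 41.4% of Mus81. The other genes lay between, from 63.6% for Mlh3 to 69.3% for Cntd1. Without them Msh4 kept 40 counts, fewer than Cntd1 (51) and Msh5 (41), whose exons are shorter, so both stood above it. The full order without them was not computed. All libraries keep 3' ends, so a level per kilobase understates long transcripts.

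The 8 genes varied only weakly together over cells. The median Spearman correlation of the 28 pairs was 0.17 over the 40 cells, from -0.44 for Msh5 and Mus81 to 0.44 for Hfm1 and Rnf212, and it was 0.18 within Metaphase I and 0.01 within Pachytene. Msh4 and Msh5, whose proteins work as a pair, had 0.18. Cells share a protocol and differ in depth, and many counts are low. The mean log2(CPM + 1) of the 8 genes was highest in Metaphase I replicate 13 (5.52) and lowest in Pachytene replicate 7 (1.83). Over the 40 cells this mean had a correlation of 0.61 with the summed synaptonemal complex genes (0.59 within Metaphase I, 0.61 within Pachytene), -0.57 with Ccnb1 (-0.76 and -0.39), -0.45 with round spermatid markers (-0.19 and -0.61) and 0.18 with the total count (0.24 and 0.16). With the summed Sertoli cell markers the mean had a correlation of 0.24 (0.15 and 0.14). Its correlation with Aurka, the mitotic and meiotic kinase, was -0.18 over all cells, -0.46 within Metaphase I and 0.08 within Pachytene, and Hfm1 by itself had -0.59 over all cells. Over the 32 cells at or under 0.3% X-linked counts the mean had a correlation of -0.59 with Aurka, 0.58 with synaptonemal complex genes, -0.67 with Ccnb1, -0.46 with round spermatid markers and 0.33 with the total count. With Sertoli cell markers it was 0.41 over these 32 cells. The 4 Metaphase I cells with the highest mean, replicates 13, 14, 1 and 15, had 4.01, 3.92, 4.15 and 7.96 CPM of Ccnb1, against a Metaphase I median of 245 CPM.

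**Figure D4:**
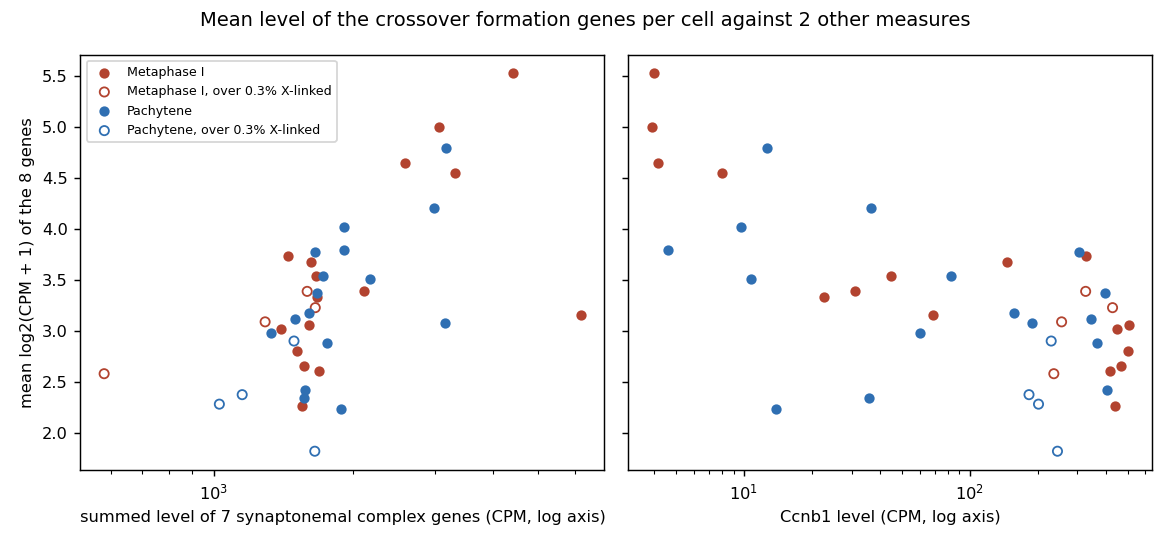
Mean log2(CPM + 1) of the 8 genes in each cell against the summed CPM of 7 synaptonemal complex genes (left) and against Ccnb1 CPM (right), both on log axes. Red points are Metaphase I cells, blue points Pachytene cells and open points libraries with over 0.3% X-linked counts. The mean reached 5.52 in the Metaphase I cell with 4413 CPM of synaptonemal complex genes and 4.01 CPM of Ccnb1, and the Spearman correlations over 40 cells were 0.61 and -0.57. The cell with the highest synaptonemal complex level, Metaphase I replicate 18 at 6176 CPM, had a mean of only 3.16.

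Among 9589 other genes with at least 100 summed counts and counts in at least 20 cells, those most like the mean of the 8 over the 40 cells were Cox7b2 (Spearman 0.76), Epn2 (0.74), Adad2, Tuba3a, Pbx4, Tesmin, Taf1b, Pcgf6, Hnrnpm and Capn10 (0.71 down to 0.69). For single members the most similar genes were Ift88 for Hfm1 (0.76), Blcap for Msh4 (0.61), Prpf40b for Msh5 (0.63), Aars for Mlh3 (0.83), Taf1b for Rnf212 (0.63), Mrpl21 for Ccnb1ip1 (0.75), Grpel1 for Cntd1 (0.64) and AC158774.1 for Mus81 (0.58). These are the highest of many correlations and are given as a description.

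The other genes of the pathway were grouped by role, and a number in parentheses after a pair of counts is the log2 ratio. Beside the list results below, 8.49% of all measured genes were over 2-fold higher and 9.81% over 2-fold lower. Of 7 measured other pro-crossover factors 0 were over 2-fold higher or lower (median log2 ratio 0.14, and 0.12 without Metaphase I replicate 13). Exo1, an exonuclease that also helps MLH3 to make crossovers, had 214 counts in Metaphase I and 131 in Pachytene, a log2 ratio of 0.98. Shoc1, which binds branched DNA and is needed for crossovers, had 140 counts in Metaphase I and 110 in Pachytene (0.63). Tex11, an X-linked crossover factor, had 13 counts in 3 Metaphase I cells and 0 in Pachytene, below the minimum of 20, and is named after its values were seen, as is Dmc1. Metaphase I replicate 17 held 46.2% of the Tex11 counts and replicate 7 had its highest CPM, both libraries over 0.3% X-linked counts. Of 13 nuclease, dissolution and crossover-limiting helicase genes 1 was over 2-fold higher, Eme1, and 1 lower, Gen1 (median 0.16). Gen1, a nuclease that cuts Holliday junctions, had 45 counts in Metaphase I and 261 in Pachytene, 4.50-fold lower in Metaphase I (3.27 to 6.32), with 58.2% of the Pachytene counts in replicate 7. Without the 8 libraries over 0.3% X-linked counts, 0 of the 13 were over 2-fold either way (6.32% of measured genes higher and 4.13% lower). Slx1b, a subunit of another such nuclease, had 71 counts in Metaphase I and 58 in Pachytene (0.53).

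Strand exchange genes had a median log2 ratio of 0.03, with 1 of 13 measured over 2-fold higher and 0 lower. The higher gene was Mcmdc2, which supports strand invasion, with 99 counts in 8 Metaphase I cells and 41 counts in 5 Pachytene cells (1.31). Mnd1, which helps DMC1, had 18 counts in Metaphase I and 53 in Pachytene (-0.79), with 88.9% of the Metaphase I counts in replicate 14 and 43.4% of the Pachytene counts in replicate 7. The meiotic recombinase gene Dmc1 had 4 counts in Metaphase I and 0 in Pachytene. Of 6 measured break formation genes 0 were over 2-fold either way (median 0.17). Mei1, a gene needed to form the breaks, had 23 counts in Metaphase I and 76 in Pachytene (-0.99). Gm960 had 29 counts in Metaphase I and 20 in Pachytene (0.55), and Ankrd31, which helps to place breaks, had 1708 counts in Metaphase I and 1561 in Pachytene (0.49). Of 7 synaptonemal complex genes 0 were over 2-fold either way (median 0.43), with Tex12 at 0.82, Sycp2 at 0.78 and Sycp1 at 0.75. Leaving out replicate 13 gave a median of 0.13, and leaving out Metaphase I replicates 13 to 20 gave -0.17. Leaving out the 4 libraries of each group over 0.3% X-linked counts gave 2 of 7 genes over 2-fold higher (6.32% of measured genes). Their median was then 0.74.

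Without Metaphase I replicates 13 to 20 the log2 ratio was 0.34 for Exo1, -0.71 for Shoc1, 0.41 for Mcmdc2, -1.38 for Gen1, -1.73 for Mei1 and -1.63 for Mnd1. Of the genes in the strand exchange and nuclease lists 0 were then over 2-fold higher, where 2.21% of measured genes were. Gen1 and Mnd1 of these lists were over 2-fold lower, where 8.35% of measured genes were.

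Of the mismatch repair genes that are not specific to meiosis, 4 of 5 were measured, 1 was over 2-fold higher and 0 lower (median 0.54). Pms2, a mismatch repair nuclease subunit, had 30 counts in 7 Metaphase I cells and 0 in Pachytene, with an exact lower limit of 9.85 for the fold. Of these Pms2 counts, 36.7% lay in Metaphase I replicate 15. Msh6 had 362 counts in Metaphase I and 271 in Pachytene (0.75) and Pms1 had 21 counts in Metaphase I and 18 in Pachytene (0.33). With Metaphase I replicates 13 to 20 left out, Pms2 fell below the minimum of 20 counts. The log2 ratio was then 0.33 for Msh6 and 0.54 for Pms1.

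**Figure D5:**
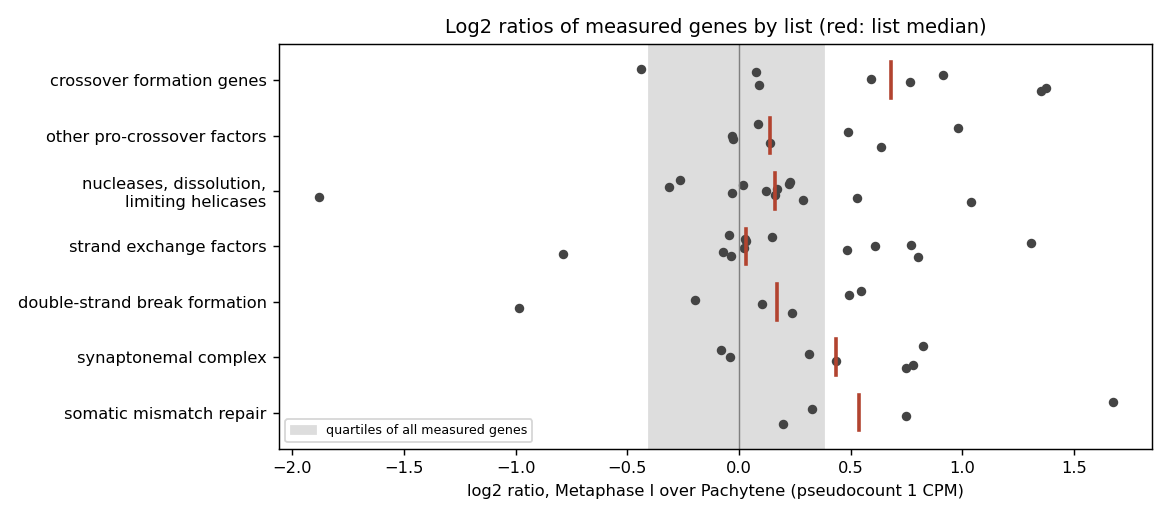
Log2 ratio, Metaphase I over Pachytene, of each measured gene by list, with the list median in red and the quartiles of all measured genes (-0.40 to 0.38) in grey. The crossover formation genes had a median of 0.68 and the other recombination lists had medians from 0.03 to 0.54. This order changed with the libraries kept: without Metaphase I replicate 13 the medians were 0.25 for the crossover formation genes and 0.55 for somatic mismatch repair, and without the 8 libraries over 0.3% X-linked counts they were 0.66, against 0.74 for synaptonemal complex genes. Without Metaphase I replicates 13 to 20 the median of the crossover formation genes turned to -0.18.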

How the data were processed

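RNA was measured in 40 single testicular cells, each with its own library. The deposited table holds raw counts per gene, and UMI-tools, STAR, featureCounts and GRCm38 are named, per the submitters' processing notes. Versions, annotation release, strand setting and whether molecular identifiers were collapsed are given nowhere in the sources used here.

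Counts were summed over the 20 cells of each group and scaled to CPM. Each log2 ratio sets Metaphase I over Pachytene after adding 1 CPM, and a measured gene has at least 20 counts. A group is 1 sample, so differences have no replicate check. Folds have exact conditional binomial intervals (scipy 1.17.1, Python 3.11.15). A count of 0 was bounded by 3 counts. TMM factors came from edgeR 4.0.16 (R 4.3.3), which ran no test. Thinning drew 340000 counts a cell without replacement, leaving out 3 Metaphase I cells and 1 Pachytene cell. The computation was tested on simulated group sums with counting error only. These hold no spread between cells, so the test cannot speak to that spread.

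The 8 genes and the gene lists were chosen with earlier results of these data known. Named beyond them are the partners Cdk2 and Eme1, up to 3 measured genes with the largest ratio in each pathway list, and the genes most similar over cells. Of 131 list entries 130 were in the table by symbol. Some genes that this rule would name are not reported here.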

Additional observations from a re-analysis of the deposited data

How the results depend on the processing

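The count of genes over 2-fold higher (2 of 8) was 0 with equal weight per cell (8.24% of all measured genes in that setting), 1 with medians over cells (3.52%), 1 with 10 CPM added (0.884%), 1 after thinning (5.58%) and 1 (4.74%) without the 8 libraries over 0.3% X-linked counts and Metaphase I replicate 13, a setting chosen after seeing the data. The median log2 ratio (0.68) was 0.28 with equal weight, 0.41 with 10 CPM added and 0.12 in that last setting. The log2 ratio of the sum (0.70) was 0.40 with equal weight, -0.019 with medians over cells, which turns its direction, 0.45 after thinning and 0.31 in that last setting. Leaving out each cell in turn gave 0 to 3 genes over 2-fold higher, where 5.06% to 9.63% of measured genes were. It gave 0 to 0 over 2-fold lower, where 3.91% to 14.8% of measured genes were. The median then ran from 0.25 to 0.86 and the log2 ratio of the sum from 0.36 to 0.80, both lowest without Metaphase I replicate 13. Metaphase I replicates 13 to 20 were also left out, again chosen after seeing the data. The count was then 0, the median turned to -0.18 and the log2 ratio of the sum was 0.12. Msh4 turned to -0.16 and Eme1 to -0.026. The Sertoli marker median turned to -0.57, but the libraries left out were picked by these same markers. Eme1 turned to -0.15 without the 8 libraries and Metaphase I replicate 13. Other values of the 4 summaries under other scalings, filters and pseudocounts stayed within counting error or 1.5 times. The cause of these shifts was not tested. No paired analysis was possible because the results come from no test and replicate numbers only name cells.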

Other observations

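Markers of other cells were counted in the same way, with medians as log2 ratios of Metaphase I over Pachytene. Again 8.49% of all measured genes were over 2-fold higher and 9.81% over 2-fold lower. Of 11 elongating spermatid markers 0 were over 2-fold higher and 7 over 2-fold lower (median -1.41), and of 8 round spermatid markers 0 were higher and 5 lower (-1.14). With the 8 libraries of over 0.3% X-linked counts left out, 3 of the 11 and 0 of the 8 were lower (4.13% of measured genes). Sertoli cell markers were over 2-fold higher for 8 of 8 measured genes (3.78), and for 2 of 4 without those libraries (6.32% of measured genes). Metaphase I replicate 19 held most of their Metaphase I counts, such as 7362 of 7617 for Clu and 55 of 55 for Wt1. Without Metaphase I replicates 13 to 20, 4 of the 11 elongating and 0 of the 8 round spermatid markers were lower (8.35% of measured genes). In that setting 0 Sertoli cell markers were over 2-fold either way, and only Clu, Amhr2 and Ctsl were still measured. The libraries left out were picked by these same markers, so the loss of the difference was fixed by that choice. Of 9 pachytene spermatocyte markers 0 were over 2-fold either way (-0.04), and of 8 division markers 1 was higher and 0 lower (0.25). Few genes were measured of the spermatogonia list (1 of 3 higher, 0 lower), the Leydig list (1 of 1 higher) and the peritubular, endothelial and blood list (1 of 2 higher, 0 lower). Metaphase I replicate 19 had the highest sums of these lists, at 412, 162 and 62.5 CPM. The Metaphase I medians were 12.7, 4.08 and 0.334 CPM.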
